A study of Homo sapiens with 8 samples.

Results

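Integrin chains, laminin chains and hemidesmosome genes were followed across 8 tumors of HCC1937, a cell line from a human triple-negative breast cancer. The set holds 30 genes picked by symbol from the 18164 genes of the deposited table, namely 17 integrin chains, 10 laminin chains, the plakin genes DST and PLEC and the tetraspanin gene CD151. All 30 were found. The NMN group held 4 tumors treated with nicotinamide mononucleotide (NMN), from which cells make NAD+, at a dose of 500 mg/kg/day. The Vehicle group held 4 vehicle-treated tumors. The tumors are called NMN 1 to 4 and Vehicle 1 to 4. All hosts were NCG mice, an immunodeficient NOD-derived strain with edited Prkdc and Il2rg genes, and all received 1000000 HCC1937 cells in an inguinal mammary fat pad. Treatment groups were formed when tumors reached 100 to 150 mm3. No age or sex of the mice was given in the labels. Whether the tumors are from separate mice is not stated either, so each p-value reflects only the spread among these 8 samples, part of which may be technical. All tumors derive from 1 cell line, and NCG hosts lack most lymphocytes.

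Integrins are receptors made of 1 α and 1 β chain that bind the extracellular matrix. Laminins, which are trimers of an α, a β and a γ chain, form the core of basement membranes. In basal epithelial cells, including those of the mammary gland, integrin α6β4 binds laminin-332 outside the cell and, through the plakins plectin and BPAG1, holds keratin filaments inside it, a junction called the hemidesmosome. Integrin β1 pairs with many α chains and the αv chain with several β chains, so the amount of a partner can limit which receptors form.

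Each value is in TPM (transcripts per 1000000), a level scaled for transcript length and library size, so levels can be set side by side between genes. TPM keeps no read depth, and the depth of the 8 libraries is unknown. Genes above 0 numbered 16451 to 16662 per library. Among receptor genes that define the triple-negative class, PGR lay between 0 and 0.02 TPM, ESR1 between 3.37 and 6.00 TPM and ERBB2 between 77.6 and 130 TPM over the 8 tumors. The values are of human genes in whole tumors, and the treatment of mouse reads is not stated by the labels. In bulk RNA, fewer cells of a type and less RNA per cell cannot be told apart. Vehicle 4 stood apart from the other tumors: its mean squared deviation from the 8-tumor mean of log2(TPM + 1), over 13358 genes, was 0.142, against 0.0664 to 0.0889 in the other 7. Values that moved with Vehicle 4 are therefore given with and without it.

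No member differed between NMN and Vehicle tumors beyond the spread between tumors. Of the 30 members, 22 reached the filter of at least 1 TPM in at least 4 of the 8 tumors, 21 of them in all 8 and ITGA7 in 7. By limma with Benjamini-Hochberg adjustment over 13358 genes, 0 of the 22 had an adjusted p under 0.05, where the share over all genes was 0.00%, and their adjusted p-values ran from 0.704 to 0.984. At an unadjusted p under 0.05 stood 1 member with the higher mean in NMN tumors, ITGA7, and 0 with the lower, beside 4.79% of all genes higher and 2.15% lower. Without Vehicle 4 these counts were 0 and 0, beside 4.06% and 2.19%, and 0 members passed after adjustment, beside 0.00% of all genes. Without NMN 4, 0 members passed after adjustment, beside 0.404% of all genes. At an unadjusted limma p under 0.05 stood 0 higher and 1 lower member, LAMA1, beside 4.67% and 4.88% of all genes. In each of the 22 genes the NMN and Vehicle values overlapped, whereas they did not overlap in 3.05% of all genes.

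The mean was higher in NMN tumors for 7 members and lower for 15, beside 51.0% and 49.0% of all genes. The median log2 fold change of the 22, taken on log2(TPM + 1) as NMN minus Vehicle, was -0.14, against 0.00 over all genes tested. Without Vehicle 4 the split was 12 higher and 10 lower, beside 50.0% and 50.0% of all genes, and the median was 0.01. Without NMN 4 it was 7 higher and 15 lower, beside 42.9% and 57.1%. Fold changes ran from -0.47 ± 0.23 (SE) for LAMA1 to 0.52 ± 0.30 for LAMA4.

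**Figure D1:**
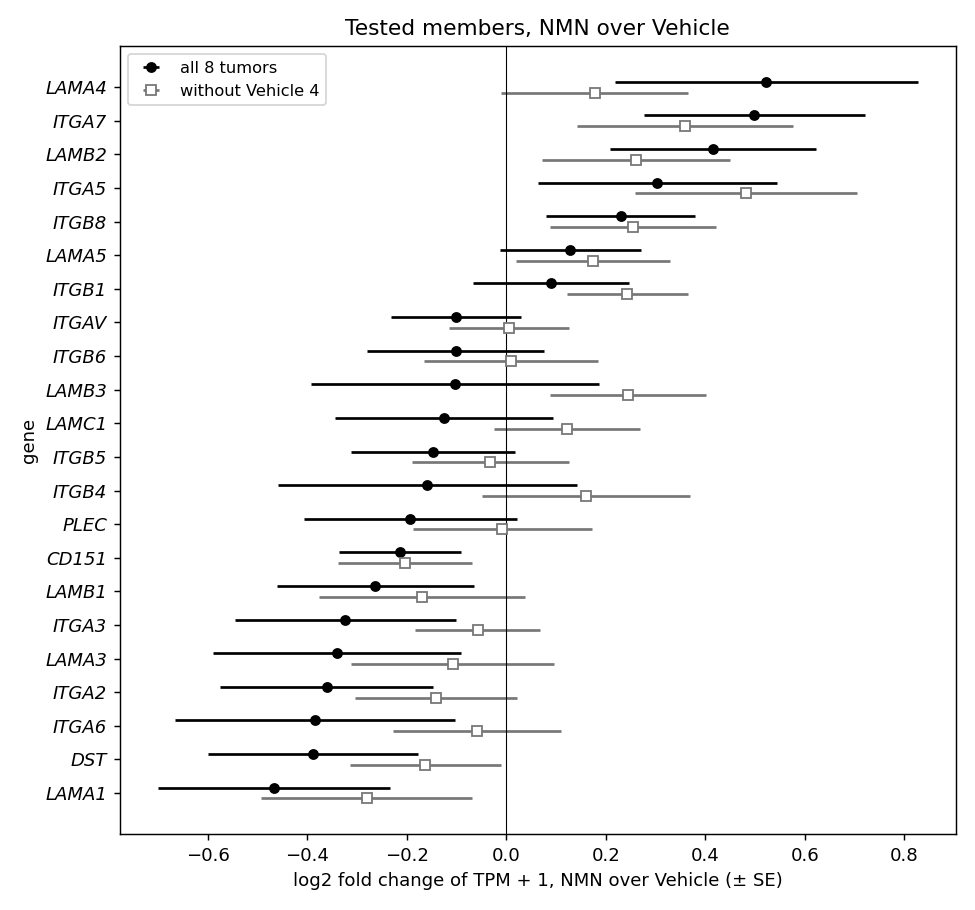
Log2 fold change of TPM + 1, NMN over Vehicle, with its standard error, for the 22 tested members (filled circles, all 8 tumors; open squares, without Vehicle 4). Leaving out Vehicle 4 moved ITGB4, LAMB3, LAMC1, ITGAV and ITGB6 across 0, and LAMA4 came down to 0.18.

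Of the hemidesmosome receptor, ITGA6, the α6 chain (chromosome 2, 172427354 to 172506282, plus strand, GRCh38), was at 36.9, 37.4, 40.1 and 51.6 TPM in NMN 1 to 4, against 40.1, 55.5, 35.2 and 107 TPM in Vehicle 1 to 4. ITGB4, the β4 chain with the long cytoplasmic tail that binds plakins (chromosome 17, 75721328 to 75757818, plus strand), was at 40.5, 30.8, 50.3 and 35.6 TPM in NMN 1 to 4, against 24.8, 35.0, 47.1 and 84.9 TPM in Vehicle 1 to 4. For both chains Vehicle 4 was the highest tumor and the other 7 overlapped. The log2 fold change was -0.38 ± 0.28 for ITGA6 (adjusted p = 0.902) and -0.16 ± 0.30 for ITGB4 (adjusted p = 0.967). Without Vehicle 4 these were -0.06 ± 0.17 and 0.16 ± 0.21, so that the sign of ITGB4 rested on 1 tumor.

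The plakins were also highest in Vehicle 4. PLEC, which encodes plectin, a linker of β4 to keratins, was at 115, 81.4, 120 and 110 TPM in NMN 1 to 4, against 82.3, 102, 142 and 178 TPM in Vehicle 1 to 4. DST, which encodes BPAG1 among other forms of dystonin, was at 24.8, 25.3, 29.2 and 29.4 TPM in NMN 1 to 4, against 25.6, 28.7, 38.3 and 57.8 TPM in Vehicle 1 to 4. Vehicle 4 and Vehicle 3 were the 2 highest tumors for each. DST also serves muscle and nerve through other isoforms, and values per gene cannot tell them apart. The log2 fold change was -0.19 ± 0.21 for PLEC (adjusted p = 0.951) and -0.39 ± 0.21 for DST (adjusted p = 0.812), or -0.01 ± 0.18 and -0.16 ± 0.15 without Vehicle 4.

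CD151, a tetraspanin that associates with α3β1, α6β1 and α6β4, did not share this pattern. It averaged 140 ± 24.1 TPM in the NMN group and 160 ± 3.43 TPM in the Vehicle group (SD, n = 4 each). The 4 Vehicle tumors lay close together, between 157 and 163 TPM, while NMN 2 was the lowest tumor at 106 TPM. Its log2 fold change was -0.21 ± 0.12 with Vehicle 4 (adjusted p = 0.836) and -0.20 ± 0.13 without it. Without NMN 2 it was -0.09 ± 0.08. COL17A1, the transmembrane collagen of the hemidesmosome and no member of the set, was at 109 TPM in Vehicle 4 and at most 35.9 TPM in the other tumors.

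The α3 and β3 chains of laminin-332, the ligand of α6β4, had their highest value in Vehicle 4 too. LAMA3 (chromosome 18, 23689443 to 23956222, plus strand) was at 14.9, 18.2, 15.1 and 15.2 TPM in NMN 1 to 4, against 16.1, 12.4, 25.0 and 33.4 TPM in Vehicle 1 to 4. LAMB3 (chromosome 1, 209614870 to 209652466, minus strand) was at 45.5, 57.0, 59.8 and 45.6 TPM in NMN 1 to 4, against 34.3, 46.4, 51.2 and 116 TPM in Vehicle 1 to 4. The NMN tumors lay inside the range of the Vehicle tumors for both chains. The log2 fold change was -0.34 ± 0.25 for LAMA3 (adjusted p = 0.903) and -0.10 ± 0.29 for LAMB3 (adjusted p = 0.984). Without Vehicle 4 it was -0.11 ± 0.20 for LAMA3 and, with the sign turned, 0.25 ± 0.16 for LAMB3. In every tumor the LAMA3 level was below that of LAMB3, with a ratio of LAMA3 to LAMB3 between 0.252 and 0.489.

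Promoter windows of RefSeq starts, from 250 bases before to 50 bases after a start (GRCh38.p14), are shown for LAMA3 and LAMB3, which shared the high value in Vehicle 4, and for LAMA4, which was lowest there. Capitals mark TGANTCA, the core letters bound by AP-1 (dimers of JUN and FOS proteins). The motif reads the same on both strands, and it was the 1 motif searched. The LAMA3 window is chr18:23872770-23873069 on the plus strand, at a start inside the gene. The LAMB3 window is chr1:209651325-209651624 on the minus strand, the one with a match among the 3 starts listed for LAMB3. The LAMA4 window is chr6:112254518-112254817 on the minus strand.
LAMA3: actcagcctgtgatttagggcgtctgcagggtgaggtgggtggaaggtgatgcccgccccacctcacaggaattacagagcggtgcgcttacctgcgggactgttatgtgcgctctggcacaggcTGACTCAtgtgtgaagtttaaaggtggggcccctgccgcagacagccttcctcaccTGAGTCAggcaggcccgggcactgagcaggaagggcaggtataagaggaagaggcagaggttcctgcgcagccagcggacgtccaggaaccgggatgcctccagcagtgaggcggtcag
LAMB3: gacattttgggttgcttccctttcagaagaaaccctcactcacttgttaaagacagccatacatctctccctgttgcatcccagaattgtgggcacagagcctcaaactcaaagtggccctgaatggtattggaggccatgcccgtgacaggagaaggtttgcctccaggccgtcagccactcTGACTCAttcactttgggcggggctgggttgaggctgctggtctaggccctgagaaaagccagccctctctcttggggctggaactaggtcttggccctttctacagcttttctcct
LAMA4: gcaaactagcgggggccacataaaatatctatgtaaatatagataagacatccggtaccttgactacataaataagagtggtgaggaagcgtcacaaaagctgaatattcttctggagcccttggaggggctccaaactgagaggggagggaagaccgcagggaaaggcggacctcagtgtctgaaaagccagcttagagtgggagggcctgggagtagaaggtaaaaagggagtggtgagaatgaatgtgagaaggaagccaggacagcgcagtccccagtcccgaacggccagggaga

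The LAMA3 window held the motif at 125 and at 69 bases before the start, and the LAMB3 window at 67 bases before it. The LAMA4 window held none of these letters. The RefSeq table matched 21 of the 30 members, 16 of them tested. Of those 16, 4 had the motif in a listed start, namely ITGA5, LAMA3, LAMB3 and DST. Counted by window, 4 of the 30 listed windows of members held it (13.3%), beside 7.71% of all 35116 listed windows, of which 0.515% held it at least 2 times. Of 11 members with a listed window that were highest in Vehicle 4, 3 had the motif (LAMA3, LAMB3 and DST) and 8 had none (ITGA2, ITGA6, ITGAV, ITGB1, ITGB5, ITGB6, LAMB1 and LAMC1). The match is a description of the letters, and binding at these windows was not measured.

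Outside laminin-332, the laminin chains split by tumor. LAMA4, the α4 chain of vascular and mesenchymal basement membranes (chromosome 6, 112108760 to 112254939, minus strand), was at 20.5, 20.3, 29.8 and 18.5 TPM in NMN 1 to 4, against 20.0, 15.3, 23.1 and 6.77 TPM in Vehicle 1 to 4. LAMB2, the β2 chain that often replaces β1 (chromosome 3, 49121114 to 49133118, minus strand), was at 37.3, 28.9, 48.1 and 41.7 TPM in NMN 1 to 4, against 34.1, 24.3, 38.8 and 20.4 TPM in Vehicle 1 to 4. Vehicle 4 was the lowest tumor and NMN 3 the highest for both. The log2 fold change was 0.52 ± 0.30 for LAMA4 (adjusted p = 0.836) and 0.41 ± 0.21 for LAMB2 (adjusted p = 0.770), or 0.18 ± 0.19 and 0.26 ± 0.19 without Vehicle 4. Both estimates thus moved with 1 tumor, that of LAMA4 the more.

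LAMA5, the α5 chain of laminin-511 and the most abundant α chain in 8 of 8 tumors, averaged 34.6 ± 6.27 TPM in the NMN group and 31.2 ± 2.62 TPM in the Vehicle group. LAMA1, the α1 chain of laminin-111, was at 4.43, 3.04, 2.68 and 4.83 TPM in NMN 1 to 4, against 4.57, 5.71, 3.84 and 8.49 TPM in Vehicle 1 to 4. LAMA1 had the lowest fold change of the members, -0.47 ± 0.23 with all tumors (adjusted p = 0.773) and -0.28 ± 0.21 without Vehicle 4. The β1 chain gene LAMB1 averaged 12.2 ± 3.45 TPM in the NMN group and 14.5 ± 2.45 TPM in the Vehicle group. The γ1 chain gene LAMC1 averaged 15.4 ± 1.76 TPM in the NMN group and 17.7 ± 7.43 TPM in the Vehicle group, with Vehicle 4 at 28.8 TPM and no other tumor above 17.5 TPM. LAMB1 was also highest in Vehicle 4. The log2 fold change was -0.26 ± 0.20 for LAMB1 and -0.13 ± 0.22 for LAMC1, or -0.17 ± 0.21 and 0.12 ± 0.15 without Vehicle 4.

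**Figure D2:**
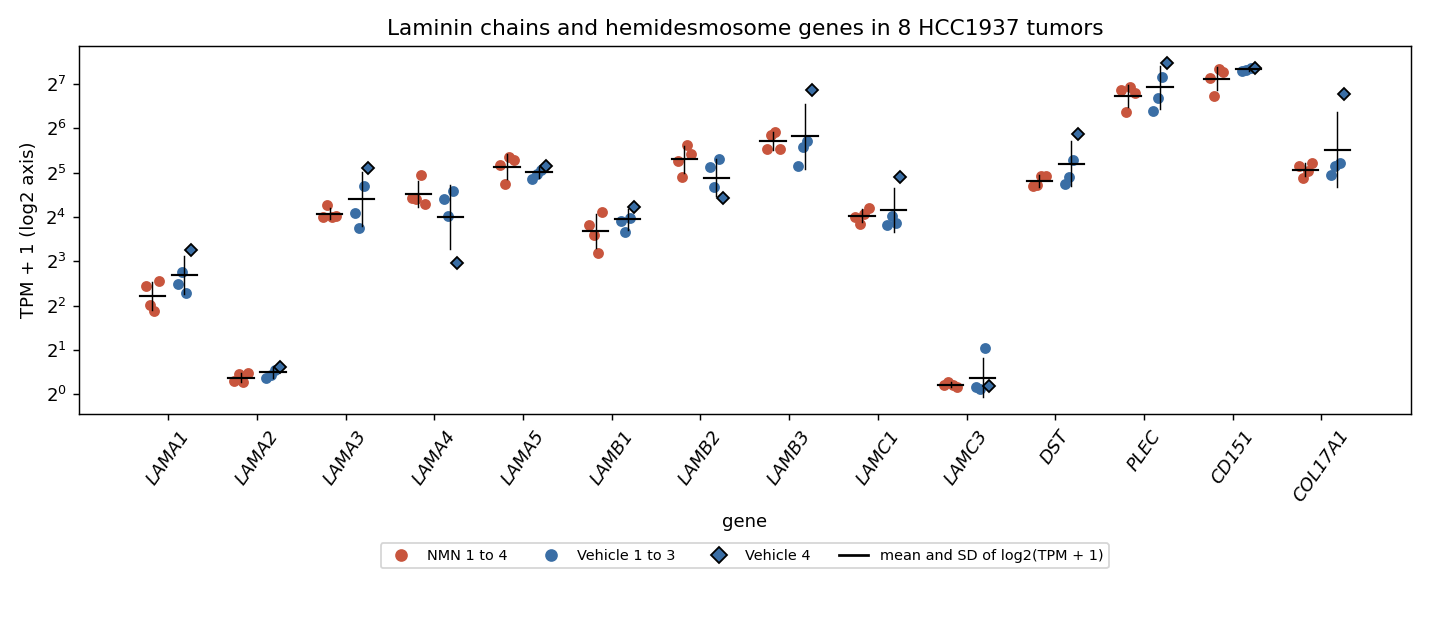
TPM + 1 on a log2 axis for the laminin chains, DST, PLEC and CD151, with COL17A1, per tumor (red, NMN; blue, Vehicle; diamond, Vehicle 4). Bars give the mean and SD of log2(TPM + 1) in each group. Vehicle 4 tops LAMA1, LAMA2, LAMA3, LAMB1, LAMB3, LAMC1, COL17A1, DST and PLEC and lies below all tumors for LAMA4 and LAMB2.

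Shares of chain TPM showed the same tilt. LAMA3 made up 20.9 ± 4.15% of laminin α chain TPM in NMN tumors and 28.0 ± 9.04% in Vehicle tumors, with 40.0% in Vehicle 4 and between 17.2% and 29.6% in the other 7. For LAMA4 the share was 28.8 ± 4.20% in NMN tumors and 22.1 ± 9.56% in Vehicle tumors, with 8.11% in Vehicle 4 and between 23.9% and 34.0% in the other 7. LAMB3 took 75.2% of laminin β chain TPM in Vehicle 4 and between 41.7% and 58.8% in the other tumors, while LAMB2 took 13.3% there against 29.5% to 41.4% elsewhere.

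**Figure D3:**
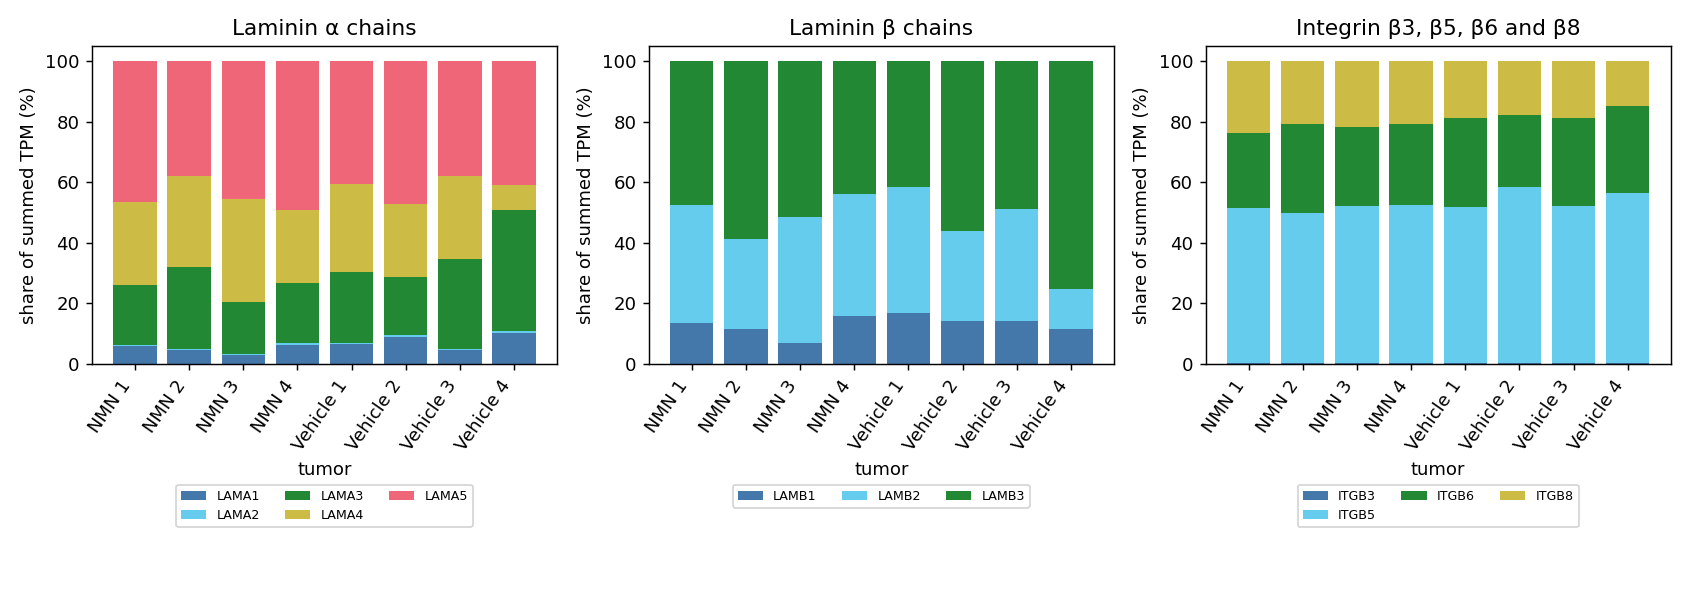
Share of summed TPM (%) per tumor among the laminin α chains, the laminin β chains and the integrin β3, β5, β6 and β8 chains, NMN tumors left and Vehicle tumors right. In Vehicle 4 LAMA3 reached 40.0% and LAMB3 75.2%, and ITGB8 shares were larger in each NMN tumor than in each Vehicle tumor.

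ITGB1, the shared β1 chain, was the most abundant member in every tumor. It was at 214, 237, 251 and 262 TPM in NMN 1 to 4, against 197, 176, 241 and 310 TPM in Vehicle 1 to 4, and made up 60.0% to 69.1% of integrin β chain TPM. The NMN tumors lay within the Vehicle range, with a log2 fold change of 0.09 ± 0.16 (adjusted p = 0.963) that was 0.24 ± 0.12 without Vehicle 4. ITGB4 and ITGB5 followed at 8.16% to 16.6% and 10.9% to 16.3% of β chain TPM.

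Among the α partners of β1, ITGA3, the α3 chain of a laminin-332 and laminin-511 receptor, was the most abundant α chain on average in both groups. It was at 57.5, 45.0, 57.1 and 47.6 TPM in NMN 1 to 4, against 49.3, 54.2, 57.7 and 113 TPM in Vehicle 1 to 4. Vehicle 4 was about 2.11 times the mean of Vehicle 1 to 3, and the log2 fold change was -0.32 ± 0.22 with it (adjusted p = 0.880) and -0.06 ± 0.13 without it. ITGA2, the α2 chain of a collagen receptor, was at 11.2, 12.9, 11.8 and 17.0 TPM in NMN 1 to 4, against 14.7, 14.0, 14.8 and 27.5 TPM in Vehicle 1 to 4. NMN 1 to 3 were the 3 lowest tumors, with a log2 fold change of -0.36 ± 0.21 (adjusted p = 0.842), or -0.14 ± 0.16 without Vehicle 4.

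ITGA5, the α5 chain of the fibronectin receptor, ordered the tumors differently. It was at 9.50, 15.1, 11.6 and 7.87 TPM in NMN 1 to 4, against 5.54, 8.22, 8.85 and 12.8 TPM in Vehicle 1 to 4. Here NMN 2 was the highest tumor, and the log2 fold change was 0.30 ± 0.24 (adjusted p = 0.916), or 0.48 ± 0.22 without Vehicle 4 (adjusted p = 0.804). It was 0.15 without NMN 2 and 0.12 without Vehicle 1. The ligand gene FN1, fibronectin, averaged 37.9 ± 12.0 TPM in the NMN group and 20.1 ± 5.96 TPM in the Vehicle group and did not pass either (log2 fold change 0.87 ± 0.25, adjusted p = 0.355; 0.72 ± 0.24 without Vehicle 4).

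ITGA7, the α7 chain of the laminin receptor of skeletal muscle, was at 2.64, 1.38, 3.19 and 1.98 TPM in NMN 1 to 4, against 1.85, 1.36, 1.36 and 0.71 TPM in Vehicle 1 to 4. Its log2 fold change was 0.50 ± 0.22 (unadjusted p = 0.045 and adjusted p = 0.704 by limma), and 0.36 ± 0.22 without Vehicle 4. Muscle markers ran the other way, and 14 of 15 listed genes were tested. All 14 had the lower mean in NMN tumors, beside 49.0% of all genes, with a median log2 fold change of -3.09. Each stood at an unadjusted limma p under 0.05, beside 2.15% of all genes that were lower at this limit. The summed level of the list was 32.2 to 51.8 TPM in NMN 1 to 3 and 691 TPM in NMN 4, against 467 to 2737 TPM in Vehicle tumors. Of the 3 tumors with the least muscle signal, NMN 1 and NMN 3 had the 2 highest ITGA7 levels, and NMN 2, at 1.38 TPM, was level with Vehicle 2 and Vehicle 3, at 1.36 TPM each. The part of muscle RNA in the ITGA7 values was not tested.

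ITGAV encodes αv, the shared chain of a receptor family for fibronectin, vitronectin and latent TGF-β. It was highest in Vehicle 4, at 1.34 times the mean of Vehicle 1 to 3. It was at 49.2, 46.4, 43.6 and 52.7 TPM in NMN 1 to 4, against 53.6, 42.6, 47.5 and 64.3 TPM in Vehicle 1 to 4, with a log2 fold change of -0.10 ± 0.13 (adjusted p = 0.957; 0.01 ± 0.12 without Vehicle 4). ITGB5, the β5 chain of a vitronectin receptor, was the most abundant of the chains that pair with αv alone, and averaged 47.5 ± 9.67 TPM in the NMN group and 52.5 ± 10.0 TPM in the Vehicle group. ITGB6, the epithelial β6 chain whose αvβ6 receptor activates latent TGF-β, averaged 24.7 ± 4.38 TPM in the NMN group and 26.8 ± 6.13 TPM in the Vehicle group. Vehicle 4 was the highest tumor for both. Neither differed beyond the spread, with a log2 fold change of -0.15 ± 0.16 for ITGB5 (adjusted p = 0.952 by limma). For ITGB6 it was -0.10 ± 0.18 (adjusted p = 0.963 by limma). Without Vehicle 4 these were -0.03 ± 0.16 and 0.01 ± 0.18.

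ITGB8, the β8 chain that also serves TGF-β activation, was at 19.5, 15.5, 21.5 and 23.3 TPM in NMN 1 to 4, against 15.5, 14.6, 19.4 and 17.6 TPM in Vehicle 1 to 4. The groups overlapped, and the log2 fold change was 0.23 ± 0.15 (adjusted p = 0.870), or 0.25 ± 0.17 without Vehicle 4. As a share of ITGB3, ITGB5, ITGB6 and ITGB8 together, ITGB8 took 23.8%, 20.6%, 21.6% and 20.7% in NMN 1 to 4, against 18.7%, 17.8%, 18.8% and 15.0% in Vehicle 1 to 4. These shares did not overlap. This was 1 of 32 chain shares computed, it was singled out after its values were seen, and it was not tested. The ratio of ITGB6 to ITGB8, which had a test, was 1.25 ± 0.163 in NMN tumors and 1.59 ± 0.232 in Vehicle tumors (exact permutation p = 0.0571, adjusted p = 0.286 over 10 ratios).

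**Figure D4:**
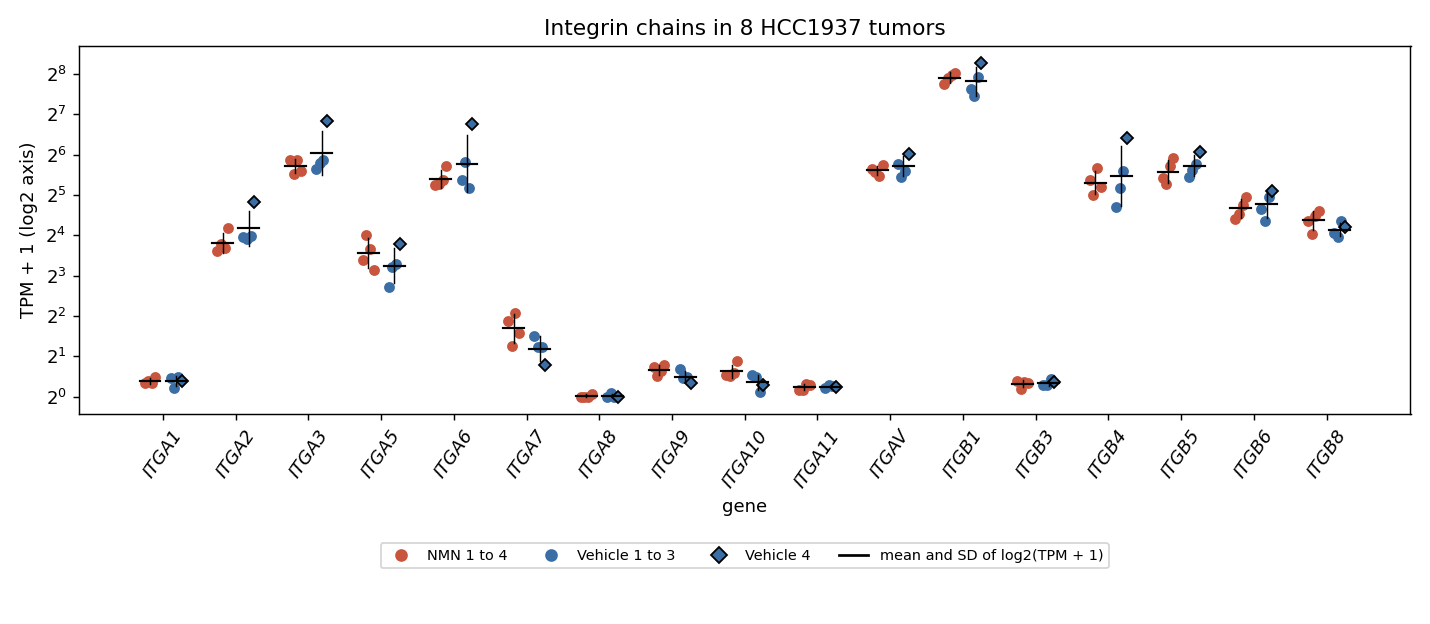
TPM + 1 on a log2 axis for the 17 integrin chains, per tumor (red, NMN; blue, Vehicle; diamond, Vehicle 4), with the mean and SD of log2(TPM + 1) in each group. ITGB1 lies above all other chains, and 6 chains lie near the bottom of the axis. Vehicle 4 tops ITGA2, ITGA3, ITGA6, ITGAV, ITGB1, ITGB4, ITGB5 and ITGB6.

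The other 8 members were under the filter and had no test. They were ITGA1, ITGA8, ITGA9, ITGA10, ITGA11, ITGB3, LAMA2 and LAMC3, chains that are mostly known from mesenchymal, muscle, vascular or platelet settings. Apart from LAMC3 in Vehicle 3, at 1.06 TPM, none reached 1 TPM in any tumor. ITGA8, the α8 chain, was listed at 0 in 6 of 8 tumors. ITGB3, the β3 chain of the platelet and endothelial vitronectin receptors, lay between 0.14 and 0.30 TPM in the NMN group and between 0.21 and 0.36 TPM in the Vehicle group. The laminin α2 chain of muscle, LAMA2, lay between 0.21 and 0.39 TPM in the NMN group and between 0.28 and 0.54 TPM in the Vehicle group, although muscle markers were abundant in 5 of the tumors.

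Ratios within receptors and trimers were set against each other on the log2 scale with exact permutation, two-sided, for which 4 tumors against 4 cannot go below p = 0.0286. The ratio of ITGA6 to ITGB4, the 2 chains of 1 receptor, was 1.09 ± 0.297 in NMN tumors and 1.30 ± 0.403 in Vehicle tumors (exact permutation p = 0.486, adjusted p = 0.607). Relative to ITGB1, the α2 chain gene ITGA2 stood at 0.0547 ± 0.00750 in NMN tumors and 0.0761 ± 0.0113 in Vehicle tumors (exact permutation p = 0.0571, adjusted p = 0.286). The ratio of ITGA3 to ITGB1 was 0.217 ± 0.0400 in NMN tumors and 0.291 ± 0.0576 in Vehicle tumors (exact permutation p = 0.114, adjusted p = 0.357). Of the 10 ratios, 0 passed after adjustment and the groups overlapped in all 10. With this floor, a ratio could pass after adjustment only if most of the 10 stood at the floor together. That 0 passed therefore says little about any single ratio. The adjusted p-values ran from 0.286 to 1.

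Vehicle 4 was the highest of the 8 tumors in 15 of the 22 tested members (68.2%), beside 16.9% of all tested genes, and the lowest in 3 (ITGA7, LAMA4 and LAMB2), beside 20.4% of all genes. Of the 22, 12 were at least 1.5 times the mean of Vehicle 1 to 3, beside 6.65% of all genes, and 5 were at least 2 times that mean, beside 2.32%. The 5 were ITGA3 (2.11 times), ITGA6 (2.46 times), ITGB4 (2.38 times), LAMB3 (2.63 times) and LAMC1 (2.05 times). LAMA4, in contrast, was at 0.347 times and LAMB2 at 0.630 times. These values describe 1 tumor and carry no test.

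**Figure D5:**
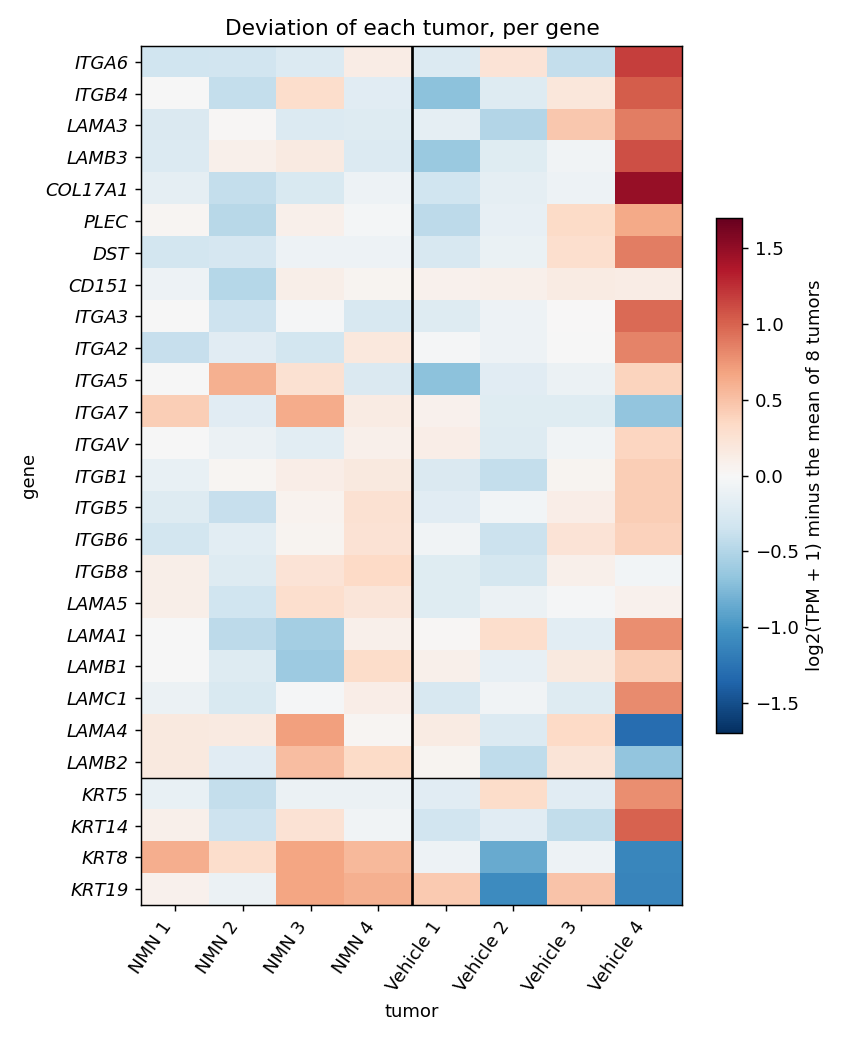
Deviation of log2(TPM + 1) from the mean of the 8 tumors for the 22 tested members and COL17A1 (above the line) and 4 keratins (below it), with NMN tumors left of the vertical line. The column of Vehicle 4 is the highest for 15 of the 22 members, among them ITGA6, ITGB4, the plakins, LAMA3 and LAMB3. It is also high for COL17A1 and the basal keratins KRT5 and KRT14, and low for LAMA4, LAMB2, ITGA7 and the luminal keratins KRT8 and KRT19.

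Markers of epithelial state moved with these genes in Vehicle 4. The 7 basal markers (KRT5, KRT14, KRT17, TP63, KRT6A, KRT6B and CDH3) were all highest in Vehicle 4, with a summed level of 22328 TPM there and 8869 to 12650 TPM in the other 7 tumors. Of the 6 luminal markers (KRT8, KRT18, KRT19, EPCAM, CDH1 and KRT7), 5 were lowest in Vehicle 4, with a summed level of 1684 TPM there and 2092 to 3881 TPM elsewhere. KRT5 and KRT14, the keratins that hemidesmosomes anchor, were at 6488 and 6953 TPM in Vehicle 4. Reads of KRT14 and KRT6A can be shared with near-identical keratins. Fibroblast markers were also at their highest sum in Vehicle 4, at 332 TPM against 144 to 317 TPM in the other tumors, whereas endothelial markers were at their lowest, at 6.67 TPM against 9.33 to 12.1 TPM. The part of these lists in the values of the members was not tested. Within the fibroblast list, the collagen gene COL1A1 was at 69.0 to 133 TPM in the NMN group and 110 to 169 TPM in the Vehicle group, whereas DCN, LUM and THY1 were at most at 0.05 TPM in all 8 tumors, as was the endothelial gene EMCN.

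Between NMN and Vehicle tumors, other genes of the pathway did not pass either, with or without Vehicle 4 or NMN 4. Of 27 focal adhesion genes, which link integrins to actin, all were tested, 15 were higher and 12 lower in mean, the median log2 fold change was 0.01, and 2 stood at an unadjusted p under 0.05, both higher. The split was 20 higher and 7 lower without Vehicle 4 (median 0.06), and 10 higher and 17 lower without NMN 4 (median -0.07), so its direction rested on 1 tumor. Over all tested genes, 51.0% were higher and 49.0% lower. These shares were 50.0% and 50.0% without Vehicle 4, and 42.9% and 57.1% without NMN 4. With all 8 tumors, 4.79% of all genes were higher and 2.15% lower at an unadjusted limma p under 0.05. Among the 2 focal adhesion genes at an unadjusted p under 0.05 was the tensin gene TNS1. It was at 8.04 ± 2.54 TPM in the NMN group and 5.39 ± 0.446 TPM in the Vehicle group (adjusted p = 0.703 by limma). Of 10 tested basement membrane genes of 15, 3 were higher and 7 lower in mean, the median being -0.16, or -0.03 without Vehicle 4. Among 12 tested genes of 15 for other integrin ligands, FN1 was higher and 4 were lower at an unadjusted p under 0.05, with a median of -0.30 (-0.26 without Vehicle 4). The lower ones included COL1A1 and COL1A2. Without Vehicle 4 the lower ones numbered 2, beside 2.19% of all genes, and without NMN 4 they numbered 7, beside 4.88%.

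Of 9 tested genes among 14 further integrin, laminin and hemidesmosome genes, 0 had an unadjusted p under 0.05, with 3 higher, 6 lower and a median of -0.04. Without Vehicle 4 the split turned to 5 higher and 4 lower, with 1 at an unadjusted p under 0.05 and a median of 0.09. Of 7 other laminin receptors 6 had the higher mean, with a median of 0.09 (0.12 without Vehicle 4), and of 6 tested tetraspanins 4 did, with a median of 0.05 (0.05 without Vehicle 4). In the list of latent TGF-β genes 5 of 6 tested genes had the higher mean, with a median of 0.08 (0.18 without Vehicle 4). Over all tested genes, 51.0% had the higher mean. Without NMN 4 the higher ones were 5 laminin receptors, 3 tetraspanins and 4 latent TGF-β genes, beside 42.9% of all genes. LTBP1, which tethers latent TGF-β to the matrix, was at 5.70, 6.60, 7.23 and 7.26 TPM in NMN 1 to 4, against 4.07, 3.03, 5.65 and 4.42 TPM in Vehicle 1 to 4. The LTBP1 groups did not overlap, as was so for 3.05% of all tested genes. LTBP1 is named because it had the smallest unadjusted limma p of its list. Its log2 fold change was 0.56 ± 0.18 (adjusted p = 0.432 by limma), or 0.58 ± 0.20 without Vehicle 4.

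Other marker lists differed in mean between the groups, and their part in the members' values was not tested. All 15 hypoxia genes averaged higher in the NMN group, 12 of them at an unadjusted p under 0.05, with a summed level of 2834 to 6609 TPM in the NMN group and 2345 to 3525 TPM in the Vehicle group. Of 6 tested fibroblast markers 6 had the lower mean, and 3 of these stood at an unadjusted p under 0.05. Endothelial, pericyte or smooth muscle, myeloid and adipocyte lists, where 3, 6, 6 and 3 genes were tested, showed median log2 fold changes of 0.05, -0.23, -0.20 and 0.34. Without Vehicle 4 these were -0.13, -0.26, -0.19 and 0.15. The basal list had a median of -0.12, or 0.29 without Vehicle 4, and the luminal list one of 0.40, or 0.29 without Vehicle 4. With all 8 tumors 0 genes of these lists passed by limma after adjustment. NMN 4 had the highest muscle and the lowest hypoxia sum of the 4 NMN tumors. Without it, 7 of 15 hypoxia genes and 12 of 14 muscle genes passed, beside 0.404% of all genes. So did 1 pericyte or smooth muscle gene, DES, and 0 genes of the other lists.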

How the data were processed

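RNA from 8 whole tumors was sequenced by the authors. TPM per gene (transcripts scaled to length and library) was used as deposited. RSEM 1.2.8, Bowtie2 2.2.5 and HISAT2 2.1.0 are listed, with build GRCh38.p13, in the submitters' processing notes, with no role given. Genes with at least 1 TPM in at least 4 of 8 libraries (13358 genes) were tested on log2(TPM + 1) with limma 3.58.1 in R 4.3.3, a mean-variance trend and group as the only term, two-sided, with Benjamini-Hochberg adjustment at 0.05 over all tested genes. The pseudocount of 1 understates changes of low genes. Ratios used exact permutation. The model was tested on simulated data with planted changes far larger than those of the members. That run therefore says nothing about changes of the members' size. Members, lists and ratios were chosen with earlier results of these data known. All members are named, with up to 3 genes of smallest p from each other list and any gene needed to describe a list. No sequencing batch is given in the labels. Gene positions are from GENCODE 29 on GRCh38, promoter sequences from RefSeq on GRCh38.p14. Some genes of the lists are not reported here.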

Additional observations from a re-analysis of the deposited data

Results flagged for a closer look

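Groups of 4 tumors were examined for 30 members, COL17A1, KRT5, KRT14 and 10 ratios, each in both treatment groups. In 11 of these 86 groups a tumor lay far from the other 3. Each value is the gap to the nearest tumor divided by the range of the group, and far means above Dixon's 95% critical value for 4 samples. That limit flags about 1 in 20 groups only where values are independent and normally distributed. The genes and ratios here share the same tumors, and TPM need not be normally distributed. The count therefore cannot show whether there were more flags than by chance, and the 11 flags are listed as a description. Vehicle 4 was high in 5 of them, namely ITGA2 (0.938), ITGA3 (0.867), LAMC1 (0.859), COL17A1 (0.925) and KRT14 (0.901). NMN 2 was high for LAMA3 (0.896) and low for KRT5 (0.888). NMN 4 was high for ITGA10 (0.85), at 0.83 TPM, and Vehicle 3 was high for LAMC3 (0.939), at 1.06 TPM. For ITGA8 the single tumor above 0 in each group, NMN 4 at 0.05 TPM and Vehicle 2 at 0.06 TPM, gave a value of 1. Flags on genes under 1 TPM rest on very low levels.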

How the results depend on the processing

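None of the 22 members passed the adjusted threshold by limma under any of the 18 other settings tried; the stricter filter tested 20 of them. Over all genes, 54 passed with library weights, 2 with the replicate block and between 0 and 54 with 1 tumor left out (54 without NMN 4, 1 without Vehicle 3). The median log2 fold change of the members ran from -0.24 without Vehicle 1 to 0.01 without Vehicle 4. Log2 fold changes turned sign without Vehicle 4 for ITGAV, ITGB4, ITGB6, LAMB3 and LAMC1, and without Vehicle 2 for ITGB1. With 1 tumor left out they ran from -0.188 to 0.00583 for ITGAV, from -0.0289 to 0.243 for ITGB1, from -0.418 to 0.160 for ITGB4, from -0.239 to 0.00975 for ITGB6, from -0.329 to 0.245 for LAMB3 and from -0.236 to 0.122 for LAMC1. ITGB4 was 0.0408 with library weights. The log2 difference in ITGAV to ITGB6, 0.00177 with all tumors, was -0.00376 with a pseudocount of 5 and ran from -0.0969 to 0.0783 with 1 tumor left out. That in LAMB3 to LAMB1, 0.160 with all tumors, ran from -0.0717 to 0.414. The cause was not tested. Same-numbered tumors of the groups did not deviate together (correlations from -0.123 to 0.026, against -0.278 to 0.194 for tumors of different number). The labels do not say whether the numbers pair the tumors, and this check cannot exclude it. With the replicate block, 3 members higher and 3 lower stood at an unadjusted limma p under 0.05, in place of 1 and 0. Of all 13358 genes, 718 higher and 376 lower did, in place of 640 and 287. Depth is unknown, and chains under 1 TPM cannot be compared here.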
